A study of Arabidopsis thaliana with 10 samples.

Results

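The nuclear genes of the photosynthetic light reactions were followed in Arabidopsis thaliana seedlings of several lines. The set held 42 genes, listed by locus: 14 LHCB and 6 LHCA genes for light-harvesting antenna proteins, 10 PSB genes for photosystem II subunits and 12 PSA genes for photosystem I subunits. All 42 were listed among the 17371 genes measured after 4 h and among the 17433 measured after 10 d. The lines, titled GFP, DIG1 and DIG2, were in the Col-0 background, and every group, GFP included, received dexamethasone, the steroid commonly used to induce transgenes in plants. At 4 h the groups were dark-grown seedlings of 3 d, GFP, DIG1 and DIG2, held in 10 µM dexamethasone for 4 h in darkness. At 10 d they were light-grown seedlings, GFP and DIG1, kept on plates with 500 nM dexamethasone, as the treatment text has it (the growth text prints mM). Each of the 5 groups had 2 libraries of polyA RNA from whole seedlings. The labels give neither the promoter behind the transgenes nor the number of independent lines, and no group was left untreated, so differences between the lines that predate dexamethasone and those induced by it cannot be told apart.

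In light, antenna proteins bind chlorophyll and pass excitation energy to the reaction centres. Photosystem II oxidises water with the help of the lumenal PSBO, PSBP and PSBQ proteins, and photosystem I reduces ferredoxin at a stromal ridge that holds PSAD and PSAE. LHCB1, LHCB2 and LHCB3 form the trimers of the major antenna, whereas LHCB4 (CP29), LHCB5 (CP26) and LHCB6 (CP24) are monomeric links between trimers and core. LHCA1 to LHCA4 form the belt around photosystem I, and LHCA5 and LHCA6 tie photosystem I to the NDH complex. These genes are known to be lower in darkness and strongly induced by light.

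Depth lay between 9979791 and 15828115 reads per library at 4 h and between 12558230 and 18754839 reads at 10 d. These numbers were worked out from the steps of the deposited RPKM values. RPKM are read numbers divided by the gene's length and by a depth set for each library. At 4 h that depth was 1.01 and 0.97 times the recovered reads in GFP and 1.02 and 1.09 times in DIG1. In DIG2 it was 0.981 and 0.959 times. At 10 d it was 0.945 and 0.962 times in GFP and 1.11 and 1.06 times in DIG1. As a check of the labels, the DIG1 transcript (AT3G48510) had 1716 and 1438 RPKM in its own line at 4 h, 1891 and 1775 at 10 d, and 1.90 or less elsewhere, while DIG2 (AT5G50360) had 4879 and 2685 RPKM in its own libraries. The sample titles print a different locus for DIG1. Of 12 root markers, 9 were listed at 4 h and 11 at 10 d, none of these at 0 in any library. The labels name replicates without saying whether each was grown separately, and p-values therefore reflect a spread between samples that may be technical. Members differed between the libraries of some groups: DIG1 library 2 at 4 h lay below DIG1 library 1 for 39 of 42 members, with a median log2 difference of −0.33 against 0.00 over all genes. GFP library 2 at 10 d lay below GFP library 1 for 38 members (median −0.18), and in the 3 remaining groups the median lay between −0.10 and 0.09.

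The members were among the most abundant transcripts of every library. LHCB1.3 (AT1G29930) ranked 1 in all 6 libraries at 4 h, between 2 and 4 at 10 d, and in dark-grown GFP seedlings it reached 9577 and 11147 RPKM. In GFP, 25 members stood in the top 100 at 4 h in each library and 38 at 10 d. LHCB4.3 (AT2G40100), a minor CP29-type antenna gene, was the least abundant member in all 10 libraries. The members took 4.61% and 4.80% of reads in GFP at 4 h, 3.98% and 3.19% in DIG1 and 3.39% and 3.11% in DIG2. At 10 d they took 13.1% and 11.9% of reads in GFP and 4.69% and 4.82% in DIG1. Both DIG groups lay below GFP at 4 h without overlap, and the 10 d groups were farther apart. The tables were normalized separately, so the 4 h and 10 d levels are set side by side without a test.

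**Figure D1:**
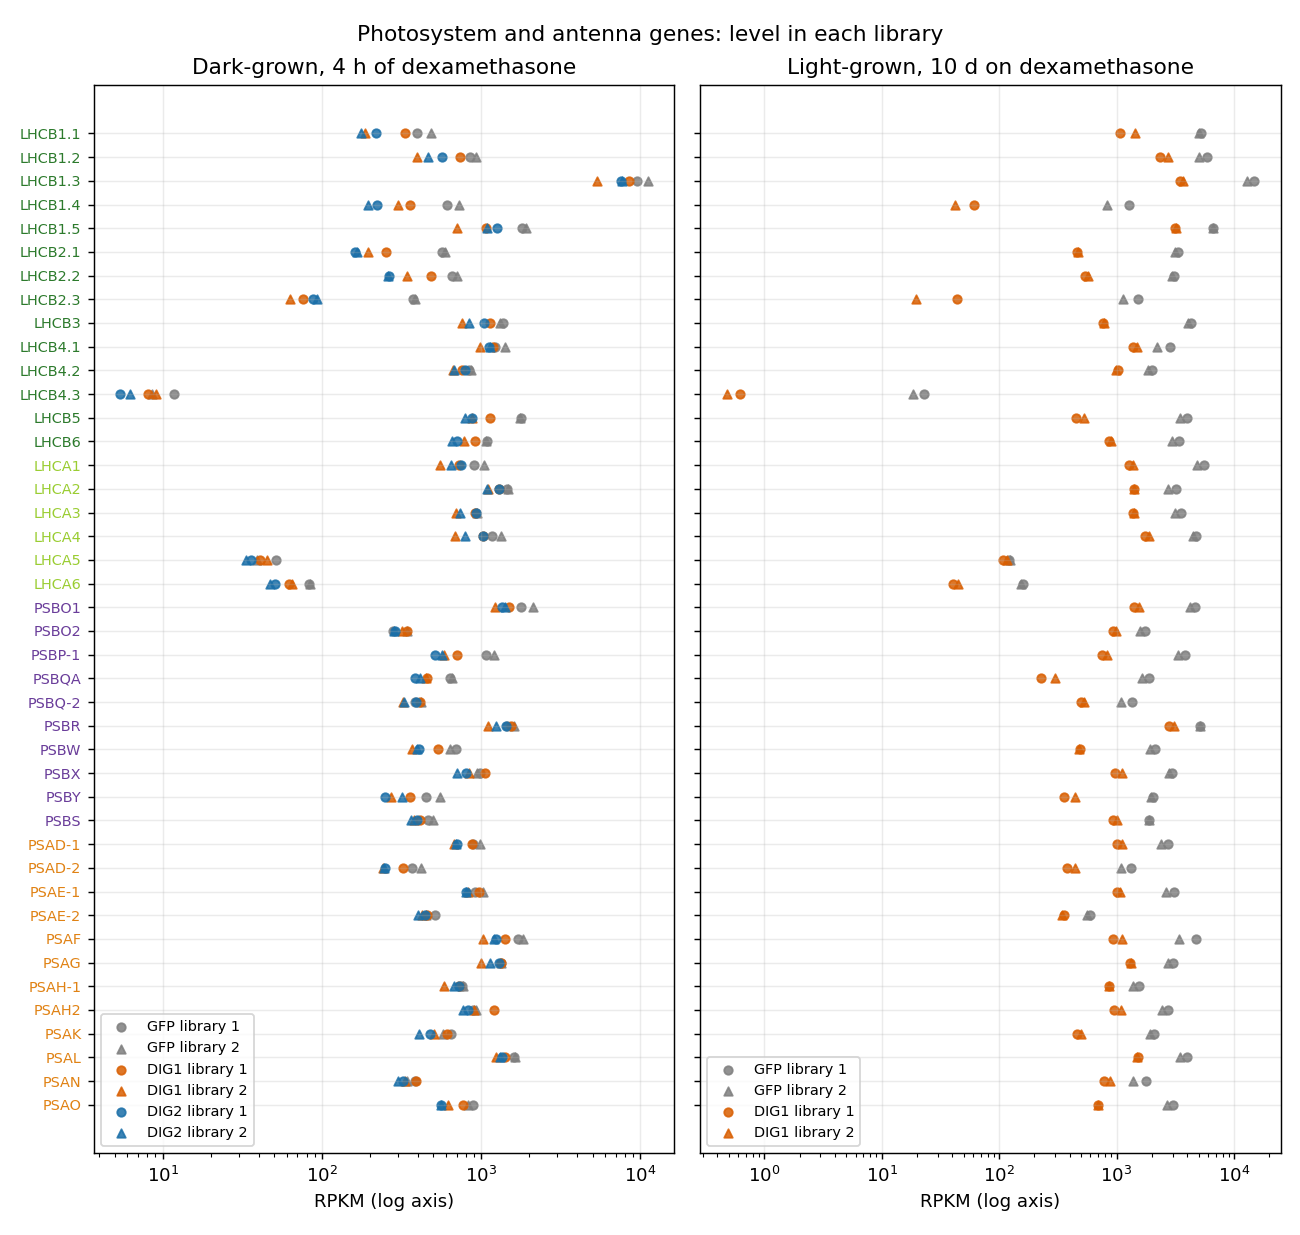
Level of each of the 42 members (rows) in each library, in RPKM on a log axis, for dark-grown seedlings at 4 h (left) and light-grown seedlings at 10 d (right). Circles are library 1 and triangles library 2, coloured by line, and names are coloured by family; at 10 d every DIG1 point lies to the left of both GFP points, farthest for LHCB2.3, LHCB4.3 and LHCB1.4.

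Several members are near copies of each other, which bears on how their reads can be told apart. LHCB1.2, LHCB1.1 and LHCB1.3 lie side by side on chromosome 1, with 1153 and 1915 bases between neighbours, and LHCB1.5 and LHCB1.4 face away from each other on chromosome 2 with 1038 bases between them (TAIR10.1 annotation). Coding sequences of the 5 LHCB1 genes were 86.8% to 96.4% identical. Of all exon windows of 100 bases, 13.7% in LHCB2.2 and 10.7% in LHCB2.1 occurred elsewhere in the genome, as did 1.51% to 4.44% in the LHCB1 genes, and none did in the other 35 members. Values of the LHCB1 genes, LHCB2.1 and LHCB2.2 are therefore uncertain where reads could have been split between copies, while LHCB2.3 is among the 35. The 100 bases are a chosen length, and shorter stretches can be shared by more members.

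The 250 bases upstream of the annotated gene start are shown for LHCB2.3, LHCB4.3 and LHCB1.4, the members with the largest falls in DIG1 at 10 d. They are also shown for the relatives LHCB2.1 and LHCB1.5, and for LHCA5, the member with the smallest difference at 10 d. Sequences are RefSeq, TAIR10.1, written 5′ to 3′ on the gene's strand and end at the base before the annotated start. Capitals mark any of 7 short motifs on either strand: the G-box CACGTG, the abscisic acid response element core ACGTG, which lies inside every G-box, the I-box GATAAG, the evening element AAAATATCT, the CCA1-binding site AAAAATCT, the sequence CCAATC and the TATA box TATAAA.
LHCB2.3 (AT3G27690, chr3:10255656-10255905, plus strand): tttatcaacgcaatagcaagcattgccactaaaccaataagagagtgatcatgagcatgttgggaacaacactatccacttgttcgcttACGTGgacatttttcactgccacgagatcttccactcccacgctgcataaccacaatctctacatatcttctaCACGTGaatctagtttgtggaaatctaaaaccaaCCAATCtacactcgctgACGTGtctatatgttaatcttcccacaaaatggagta
LHCB2.1 (AT2G05100, chr2:1824481-1824730, minus strand): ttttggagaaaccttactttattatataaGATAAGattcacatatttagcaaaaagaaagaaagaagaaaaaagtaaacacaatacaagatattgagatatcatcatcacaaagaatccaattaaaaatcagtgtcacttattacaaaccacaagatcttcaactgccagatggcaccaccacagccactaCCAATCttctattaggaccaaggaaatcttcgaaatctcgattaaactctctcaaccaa
LHCB1.4 (AT2G34430, chr2:14524357-14524606, plus strand): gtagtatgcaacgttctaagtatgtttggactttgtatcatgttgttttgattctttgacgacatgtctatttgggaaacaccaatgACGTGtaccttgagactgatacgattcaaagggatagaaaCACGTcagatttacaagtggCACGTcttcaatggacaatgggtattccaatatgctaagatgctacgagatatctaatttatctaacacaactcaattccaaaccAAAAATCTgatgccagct
LHCB1.5 (AT2G34420, chr2:14523569-14523818, minus strand): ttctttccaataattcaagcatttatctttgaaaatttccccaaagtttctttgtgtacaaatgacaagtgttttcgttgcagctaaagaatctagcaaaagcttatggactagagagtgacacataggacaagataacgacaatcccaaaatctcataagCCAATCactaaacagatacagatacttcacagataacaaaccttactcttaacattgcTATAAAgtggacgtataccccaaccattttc
LHCB4.3 (AT2G40100, chr2:16745378-16745627, plus strand): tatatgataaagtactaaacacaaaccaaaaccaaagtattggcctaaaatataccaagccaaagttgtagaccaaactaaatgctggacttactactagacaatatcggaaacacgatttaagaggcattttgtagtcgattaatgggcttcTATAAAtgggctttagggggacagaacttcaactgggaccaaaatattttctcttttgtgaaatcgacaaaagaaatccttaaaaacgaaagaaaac
LHCA5 (AT1G45474, chr1:17179000-17179249, plus strand): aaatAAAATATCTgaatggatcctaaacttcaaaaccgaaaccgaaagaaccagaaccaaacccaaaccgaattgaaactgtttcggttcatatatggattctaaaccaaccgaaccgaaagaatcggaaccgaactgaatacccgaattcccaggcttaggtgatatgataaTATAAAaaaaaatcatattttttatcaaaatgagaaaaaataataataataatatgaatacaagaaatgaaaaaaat

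LHCB2.3 held 1 G-box, 88 bases before its start, and 4 ABRE cores counted with the pair inside that G-box, whereas LHCB2.1 held none of either. LHCB1.4 held 3 ABRE cores and a CCA1-binding site, and its divergent neighbour LHCB1.5 held CCAATC and a TATA box. LHCB4.3 held a TATA box only, and LHCA5 a TATA box and the evening element. Of relatives not shown, LHCB4.1 held 1 G-box, 2 ABRE cores inside it and 2 CCAATC, and LHCB2.2 held CCAATC only. Over the 42 members, CCAATC occurred in 10 of 20 antenna windows (50%) and in 1 of 22 PSB and PSA windows (4.55%), against 10.2% of the windows of 27443 nuclear protein-coding genes. The G-box occurred in 8 members (19.0%, against 6.49% of all genes) and the ABRE core in 17 (40.5%, against 22.9%). The TATA box occurred in 45.2% of members and 47.3% of all genes. A match is a string of letters and not a shown binding site.

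Fewer photosynthetic cells and less of these RNAs per cell cannot be told apart in whole seedlings, which holds for every comparison that follows. A gene is called lower or higher where limma's adjusted p was under 0.05 on the scale log2(RPKM + 0.5), with p-values adjusted by Benjamini-Hochberg over all genes of the table. On this scale the change of genes with low values is understated.

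After 4 h in the dark, the members called lower in DIG1 were mainly LHCB1 and LHCB2 genes of the major antenna, with 5 of 8 called, while LHCB3 and the 3 other LHCB1 genes did not pass. In DIG1, 8 of 42 members were called lower and none higher, where 5.54% of all genes were called lower and 3.01% higher. The median log2 difference over the members was −0.34, against 0.00 over all genes. Both DIG1 libraries lay below both GFP libraries for 31 of 42 members, and 26.5% of all genes did so. In the authors' deposited table, 16 members were lower at an FDR under 0.05, where 7.08% of all genes were. The count of 8 rested on single libraries: it was 3 without GFP library 1, 2 without GFP library 2, 13 without DIG1 library 1 and 3 without DIG1 library 2. When recovered reads were tested with voom, scaled to the reads recovered and not to the depth of the RPKM scale, 17 members were lower. The split over all genes then turned from 522 higher and 962 lower to 994 and 773.

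LHCB2.3 (AT3G27690), which encodes a major antenna protein, stood at 374 and 383 RPKM in GFP and at 75.7 and 62.9 in DIG1. All libraries of a group were close and the groups lay far apart. It fell by 2.45 ± 0.11 (SE) on the log2 scale (limma adjusted p = 2.76e-06), the largest fall of the 42. Its relative LHCB2.1 (AT2G05100) stood at 564 and 589 RPKM in GFP and 254 and 194 in DIG1, a change of −1.38 ± 0.14 (limma adjusted p = 0.000542). These were the only members of the 8 called in DIG1 under every other setting tried, each left-out library included.

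LHCB2.2 (AT2G05070) had 659 and 702 RPKM in GFP and 486 and 341 in DIG1 (−0.74 ± 0.18, limma adjusted p = 0.0300). LHCB1.4 (AT2G34430) had 606 and 721 RPKM in GFP and 358 and 300 in DIG1 (−1.01 ± 0.15, limma adjusted p = 0.00386), and without GFP library 2 its adjusted p was 0.0507. LHCB1.5 (AT2G34420) had 1806 and 1910 RPKM in GFP and 1076 and 704 in DIG1 (−1.09 ± 0.27, limma adjusted p = 0.0324). The DIG1 libraries were well apart from each other in LHCB2.2 and LHCB1.5, and both calls were lost without GFP library 1, without GFP library 2 and without DIG1 library 2, with adjusted p up to 0.195 and 0.226.

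The 3 remaining LHCB1 genes did not pass in DIG1 although their groups did not overlap. LHCB1.1 (AT1G29920) had 398 and 485 RPKM in GFP and 331 and 187 in DIG1 (−0.82 ± 0.24, limma adjusted p = 0.0622). LHCB1.2 (AT1G29910) had 855 and 927 RPKM in GFP and 738 and 396 in DIG1 (−0.72 ± 0.27, limma adjusted p = 0.138). LHCB1.3, the most abundant transcript of all, stood at 8415 and 5334 RPKM in DIG1 against 9577 and 11147 in GFP. Its difference of −0.63 had a standard error of 0.69 (limma adjusted p = 0.669). That error is limma's, drawn towards the spread of genes of similar abundance, and is not the spread of these libraries alone. LHCB3 (AT5G54270) had 1376 and 1307 RPKM in GFP and 1136 and 757 in DIG1 (−0.53 ± 0.25, limma adjusted p = 0.255). None of the 5 minor antenna genes LHCB4 to LHCB6 was called in DIG1, with a median log2 difference of −0.28. LHCB5 lay far below that median, at 1772 and 1740 RPKM in GFP and 1135 and 877 in DIG1 (−0.82 ± 0.23, limma adjusted p = 0.0591). The authors' deposited table gives it an FDR of 0.000266.

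Outside the LHCB family 3 members were called in DIG1 at 4 h. PSBP-1 (AT1G06680), of the oxygen-evolving complex, fell from 1067 and 1200 RPKM to 701 and 583 (−0.82 ± 0.19, limma adjusted p = 0.0247). PSBY (AT1G67740), a small photosystem II subunit, fell from 452 and 555 to 356 and 271 RPKM (−0.69 ± 0.18, limma adjusted p = 0.0469). LHCA6 (AT1G19150) fell from 82.9 and 84.0 to 62.4 and 65.1 RPKM (−0.39 ± 0.09, limma adjusted p = 0.0259). LHCA6 lost its call without any 1 of the 4 libraries, and PSBP-1 and PSBY lost theirs without either GFP library or without DIG1 library 2. No PSA gene was called among 12, and their median log2 difference was −0.22. The smallest differences were those of PSAN (AT5G64040), a lumenal photosystem I subunit (−0.01 ± 0.14), and PSBX (AT2G06520, −0.04 ± 0.21). PSBO2 (0.09) and PSAH2 (0.20) were the members above 0 in DIG1, and neither passed. Under quantile normalization 30 of 42 members lay below 0 in DIG1 at 4 h, against 40 on the deposited scale.

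Among paralogues of photosystem I and of the oxygen-evolving complex in DIG1 at 4 h, none was called. PSAD-1 had 893 and 984 RPKM in GFP and 878 and 674 in DIG1 (−0.29 ± 0.20), and PSAD-2 had 370 and 417 in GFP and 325 and 243 in DIG1 (−0.48 ± 0.16). PSAE-1 and PSAE-2 overlapped between the groups, with differences of −0.10 and −0.13. PSAH2 had 885 and 921 RPKM in GFP and 1197 and 895 in DIG1, and PSAH-1 had 759 and 768 in GFP and 724 and 586 in DIG1 (−0.23 ± 0.18). PSBQA had 636 and 653 RPKM in GFP and 457 and 447 in DIG1 (−0.51 ± 0.15, limma adjusted p = 0.0598), without overlap, while PSBQ-2 overlapped (−0.13). PSBO1 had 1766 and 2124 RPKM in GFP and 1488 and 1220 in DIG1 (−0.52 ± 0.27), and PSBO2 had 281 and 342 in GFP and 340 and 319 in DIG1.

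In DIG2 seedlings after 4 h, members of all 4 families were called lower. In DIG2, 15 of 42 members were called lower and none higher, where 7.48% of all genes were called lower and 7.37% higher. The median log2 difference was −0.48 (all genes −0.01), and all 42 differences were below 0. Under quantile normalization 41 were, and LHCB1.3, the top gene of every library at 4 h, is fixed at 0.00 by that method. Both DIG2 libraries lay below both GFP libraries for 39 members, as 30.9% of all genes did. The authors' deposited table gave 22 members lower at an FDR under 0.05 (9.41% of all genes). Without GFP library 1 the count of 15 was 8, without GFP library 2 it was 7, without DIG2 library 1 it was 6 and without DIG2 library 2 it was 9, and with voom on recovered reads it was 26. DIG1 and DIG2 were set against the same GFP libraries, so their falls are not independent of each other.

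LHCB2.3 again had the largest fall, with 87.6 and 93.3 RPKM in DIG2 against 374 and 383 in GFP (−2.06 ± 0.11, limma adjusted p = 1.07e-05). LHCB2.1 stood at 161 and 166 RPKM (−1.81 ± 0.14, limma adjusted p = 9.52e-05) and LHCB2.2 at 262 and 261 (−1.38 ± 0.18, limma adjusted p = 0.00112). LHCB1.4 stood at 222 and 195 RPKM in DIG2 (−1.67 ± 0.15, limma adjusted p = 0.000233). LHCA6 stood at 51.1 and 47.4 RPKM (−0.76 ± 0.09, limma adjusted p = 0.000726). In each of these 5 genes the DIG2 libraries were nearly level and far below GFP, and the 5 were the members called under every setting tried.

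Among the other LHCB genes, LHCB1.1 fell to 217 and 175 RPKM in DIG2 (−1.17 ± 0.24, limma adjusted p = 0.0103), whereas LHCB1.2 (568 and 464 RPKM, −0.79), LHCB1.5 (1253 and 1084 RPKM, −0.67) and LHCB1.3 (7519 and 7699 RPKM, −0.44) did not pass. The CP26 gene LHCB5 (AT4G10340) went from 1772 and 1740 RPKM to 876 and 793 (−1.07 ± 0.23, limma adjusted p = 0.0138), a call lost without any 1 of the 4 libraries. LHCB4.3 had 11.8 and 8.56 RPKM in GFP and 5.43 and 6.24 in DIG2 (−0.74 ± 0.17, limma adjusted p = 0.0166), while LHCB4.1 (AT5G01530) and LHCB4.2 (AT3G08940), its abundant relatives, each differed by −0.22 and did not pass. The CP24 gene LHCB6 (AT1G15820) had 1092 and 1078 RPKM in GFP and 701 and 653 in DIG2 (−0.68 ± 0.19, limma adjusted p = 0.0411). Leaving out any 1 of the 4 libraries also ended the calls of LHCB6, PSBW, PSAD-2 and PSAO, and LHCB1.1, LHCB4.3, PSBP-1 and PSBY each lost theirs in 2 of the 4 cases and PSBQA in 3. Of LHCA1 to LHCA4 none was called.

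The photosystem II subunits called in DIG2 were PSBP-1 (516 and 570 RPKM, −1.06 ± 0.19), PSBY (249 and 318 RPKM, −0.83 ± 0.18), PSBW (408 and 398 RPKM, −0.72 ± 0.19) and PSBQA (383 and 415 RPKM, −0.69 ± 0.15). Within the oxygen-evolving complex, PSBQA (AT4G21280) had 636 and 653 RPKM in GFP, and its relative PSBQ-2 (AT4G05180) had 382 and 417 in GFP and 388 and 326 in DIG2 (−0.17 ± 0.16, limma adjusted p = 0.549). PSBO1 (AT5G66570) and PSBO2 (AT3G50820) differed by −0.49 and −0.12, and neither passed. In photosystem I, PSAD-2 (AT1G03130), a stromal ridge subunit, fell from 370 and 417 to 250 and 245 RPKM (−0.67 ± 0.16, limma adjusted p = 0.0192), and PSAO (AT1G08380) fell from 884 and 831 to 563 and 559 RPKM (−0.61 ± 0.18, limma adjusted p = 0.0485). The other 10 PSA genes were not called, though all 12 lay below GFP without overlap. The smallest differences of the 42 in DIG2 were −0.12, those of PSBO2 and PSAH-1 (AT3G16140).

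**Figure D2:**
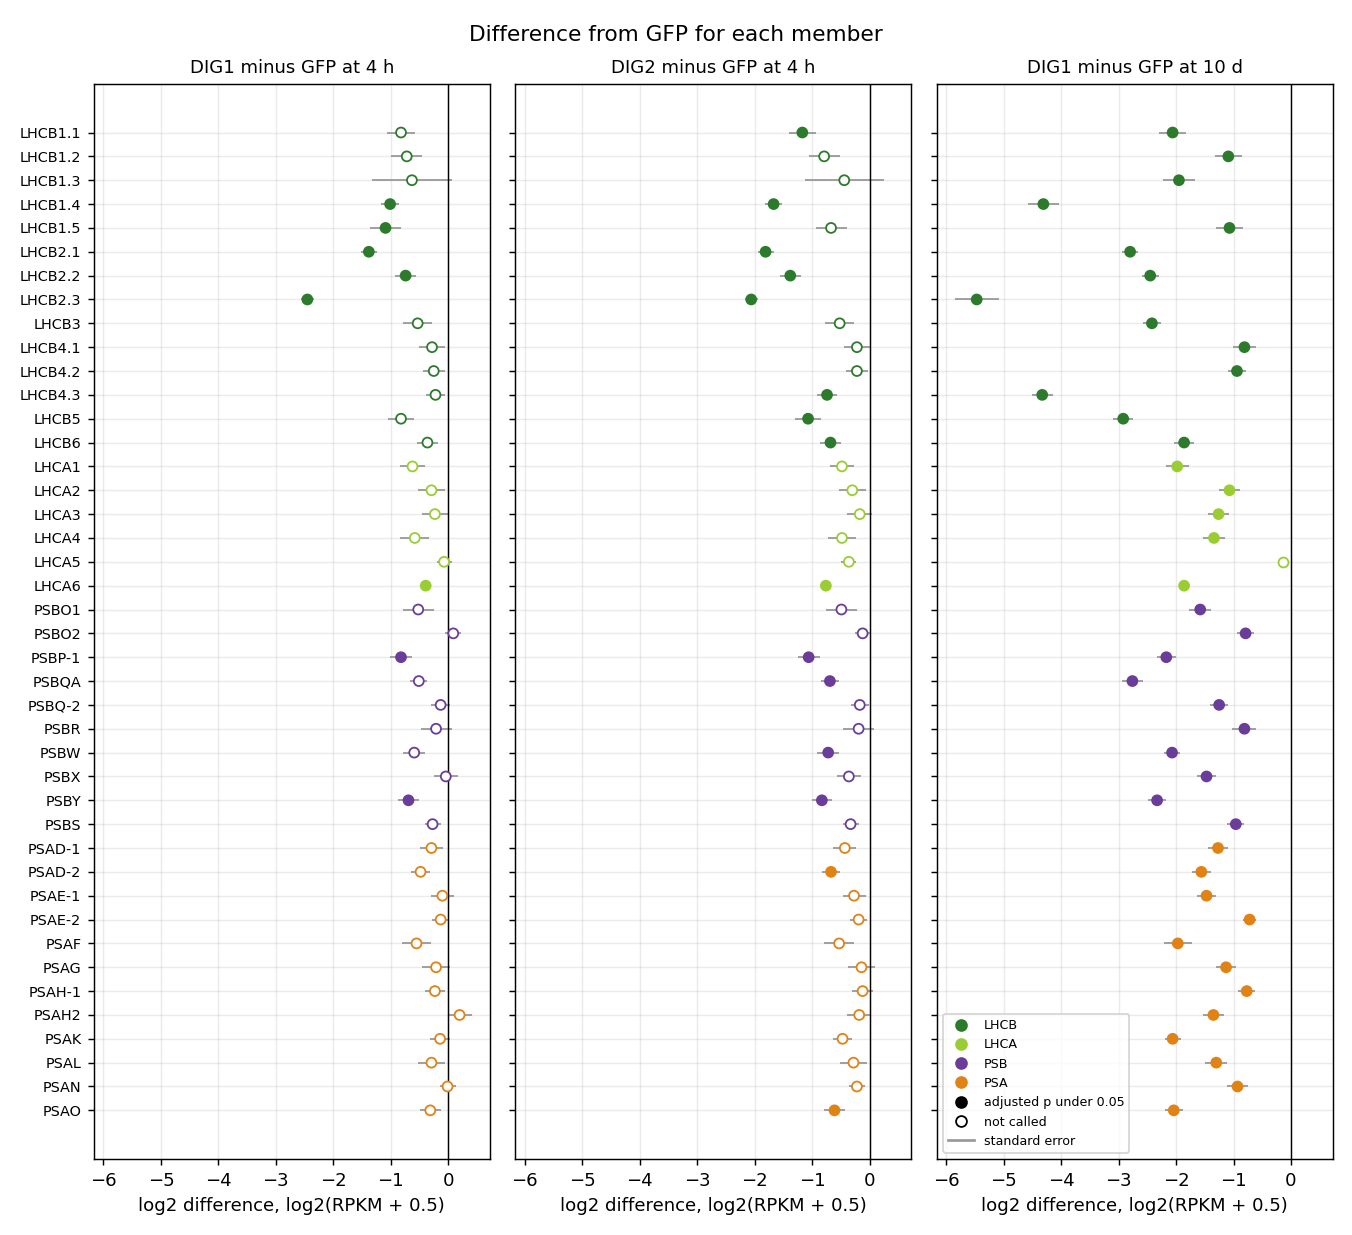
Log2 difference from GFP for each of the 42 members (rows) in DIG1 at 4 h, DIG2 at 4 h and DIG1 at 10 d; points are fitted differences on the scale log2(RPKM + 0.5), bars are standard errors, filled points passed limma's adjusted p under 0.05 and open points did not. The filled points number 8, 15 and 41, and LHCB2.3 lies farthest to the left in each panel.

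The lines were also set against each other at 4 h. No member was called between DIG1 and DIG2 by limma, where 2.36% of all genes were called in either direction. Before adjustment 7 members had a limma p under 0.05, a threshold to which the 2.36% does not apply. The median log2 difference, DIG1 minus DIG2, was 0.14 over the members, and without DIG1 library 1 it was −0.05. LHCB2.3 stood at 75.7 and 62.9 RPKM in DIG1 and 87.6 and 93.3 in DIG2, while LHCB2.2 stood at 486 and 341 in DIG1 and 262 and 261 in DIG2. Opposite orders thus held for 2 genes of one family, neither of which passed. The count differed between settings: voom on recovered reads called 9 members higher in DIG1, quantile normalization 5, and the limma fit without DIG1 library 2 called 1, whereas median-centred libraries left it at 0. With voom the split over all genes went from 108 higher and 302 lower to 488 and 230, and the median of all genes moved from 0.00 to 0.13.

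In light-grown DIG1 seedlings after 10 d, nearly the whole set was lower. Of 42 members 41 were called lower and none higher, where 31.2% of all genes were called lower and 31.9% higher. The median log2 difference was −1.52, against 0.05 over all genes. Both DIG1 libraries lay below both GFP libraries for all 42 members, as they did for 40.2% of all genes, although under quantile normalization 32 of 42 differences lay below 0 and 18 of the 41 calls were lost. The authors' deposited table also gave 41 members lower at an FDR under 0.05 (31.1% of all genes). With voom on recovered reads 41 were called lower, the median of all genes moved from 0.05 to 0.24 and that of the members to −1.33, and the split over all genes went from 5560 higher and 5439 lower to 7277 and 4643. The lowest count with 1 library left out was 31, without GFP library 1, and it was 36 without GFP library 2, 39 without DIG1 library 1 and 41 without DIG1 library 2. Of the 41 calls, 22 held under every setting tried.

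The same comparison held marked differences in other cell types' markers. Of 11 listed root markers 8 were called lower and none higher (31.2% and 31.9% of all genes), with a median log2 difference of −2.95. Only genes that passed the authors' abundance filter are listed. NRT2.1 had 0.0352 and 0.0293 RPKM in DIG1 and IRT1 had 0.181 and 0.0752. Such markers are listed through GFP, so their direction is fixed by the listing and the count is no test. The summed level of the 11 was 131 and 222 RPKM in GFP and 48.6 and 36.0 in DIG1. SCR did not differ, with 25 and 27.9 RPKM in GFP and 25.3 and 27.2 in DIG1 (−0.01). COBL9 (−1.23) and PRP3 (−2.95) were not called either. IRT1 had 3.7 and 62.6 RPKM in the GFP libraries. At 4 h the summed level of the 9 listed root markers was between 855 and 1182 RPKM in all 6 libraries, with 1 called higher and 1 lower in DIG1 and none in DIG2. Of 3 shoot markers at 10 d, the epidermal genes PDF1 and ATML1 were called lower (−2.35 and −1.18). Guard cell markers summed to 34.4 and 36.6 RPKM in GFP and 28.6 and 28.3 in DIG1 at 10 d, where KAT1 and SLAC1 were called lower (−1.73 and −0.89) and FMA higher (0.33). At 4 h they summed to 28.7 and 27.3 in GFP, 17.5 and 15.7 in DIG1 and 17.1 and 17.9 in DIG2, where KAT1 was called lower in both lines (−1.21 and −1.32). The part of these cell types in the members' differences was not tested.

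The furthest falls at 10 d were again in the LHCB family. LHCB2.3 had 1530 and 1143 RPKM in GFP and 43.4 and 19.8 in DIG1, so that the GFP and DIG1 libraries were more than an order of magnitude apart (−5.47 ± 0.38, limma adjusted p = 0.000444). LHCB4.3 had 23.0 and 18.5 RPKM in GFP and 0.622 and 0.478 in DIG1 (−4.33 ± 0.18, limma adjusted p = 0.000225), where DIG1 rested on 13 and 12 reads. LHCB1.4 had 1265 and 823 RPKM in GFP and 61.3 and 42.5 in DIG1 (−4.31 ± 0.27, limma adjusted p = 0.000382). LHCB5 fell from 3988 and 3467 to 456 and 531 RPKM (−2.92 ± 0.17, limma adjusted p = 0.000341).

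Next came LHCB2.1, from 3320 and 3148 to 462 and 467 RPKM (−2.80 ± 0.14, limma adjusted p = 0.000267), and LHCB2.2, from 3099 and 2945 to 536 and 568 (−2.45 ± 0.15, limma adjusted p = 0.000348). LHCB3 fell from 4270 and 4060 to 769 and 787 RPKM (−2.42 ± 0.16, limma adjusted p = 0.000419). LHCB1.1 fell from 5250 and 5052 to 1062 and 1434 RPKM (−2.06 ± 0.23, limma adjusted p = 0.00132) and LHCB1.3 from 14842 and 12787 to 3466 and 3650 (−1.95 ± 0.28, limma adjusted p = 0.00285). Other copies of the same protein fell less: LHCB1.2 went from 5901 and 4992 to 2361 and 2753 RPKM (−1.09 ± 0.23, limma adjusted p = 0.0110), and LHCB1.5 from 6667 and 6671 to 3160 and 3181 (−1.07 ± 0.23, limma adjusted p = 0.0107). The falls of LHCB1.2 and LHCB1.5 lost their calls without either GFP library, and LHCB1.3 lost its call without GFP library 1 (limma adjusted p = 0.0507). Under quantile normalization LHCB1.2 stood at 0.09 and LHCB1.5 at 0.00.

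The 3 CP29 genes were all called lower at 10 d. LHCB4.1 went from 2852 and 2222 to 1394 and 1480 RPKM (−0.81 ± 0.20, limma adjusted p = 0.0179) and LHCB4.2 from 2016 and 1847 to 1032 and 984 (−0.94 ± 0.15, limma adjusted p = 0.00454), beside −4.33 for LHCB4.3. For LHCB4.3, whose DIG1 level is close to the pseudocount, the authors' deposited table gives a log2 fold change of −5.23. Under quantile normalization LHCB4.1 turned to 0.39 and was called higher (limma adjusted p = 0.0225), and LHCB4.2 to 0.09. LHCB4.1 lost its call without either GFP library, without DIG1 library 1 and with a replicate block, and LHCB4.2 without GFP library 1 (limma adjusted p = 0.0506). The CP24 gene LHCB6 fell from 3372 and 2982 to 857 and 893 RPKM (−1.86 ± 0.17, limma adjusted p = 0.000753).

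In the photosystem I antenna, LHCA1 (AT3G54890) fell from 5597 and 4881 to 1265 and 1388 RPKM (−1.98 ± 0.20, limma adjusted p = 0.001), and LHCA2, LHCA3 and LHCA4 changed by −1.07, −1.26 and −1.34 on the log2 scale, though under quantile normalization LHCA2 and LHCA4 stood at 0.08 and 0.13 and LHCA3 at −0.11, none of them called. LHCA2 also lost its call without GFP library 1. The linkers to the NDH complex went apart. LHCA6 had 159 and 153 RPKM in GFP and 40.7 and 44.3 in DIG1 (−1.86 ± 0.09, limma adjusted p = 0.000261). LHCA5 (AT1G45474) had 121 and 125 RPKM in GFP and 107 and 116 in DIG1 (−0.14 ± 0.09, limma adjusted p = 0.224). LHCA5 was the 1 member not called at 10 d, although both of its DIG1 libraries lay below both GFP libraries, and with voom on recovered reads its difference was 0.05.

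All 10 photosystem II subunit genes were called lower at 10 d, with a median log2 difference of −1.53. In the oxygen-evolving complex, PSBQA fell from 1889 and 1635 to 226 and 299 RPKM (−2.76 ± 0.18, limma adjusted p = 0.000419) while PSBQ-2 fell from 1362 and 1096 to 503 and 526 (−1.25 ± 0.16, limma adjusted p = 0.00201). PSBP-1 fell from 3828 and 3320 to 756 and 834 RPKM (−2.17 ± 0.17, limma adjusted p = 0.000611). PSBO1 fell from 4629 and 4263 to 1410 and 1554 RPKM (−1.58 ± 0.19, limma adjusted p = 0.00170) and PSBO2 from 1752 and 1576 to 929 and 993 (−0.79 ± 0.15, limma adjusted p = 0.00785). Under quantile normalization PSBO2 stood at 0.10 and PSBO1 at −0.18, neither called, and PSBO2 also lost its call without either GFP library. Of the rest, the changes were −2.33 for PSBY, −2.07 for PSBW, −1.47 for PSBX, −0.96 for PSBS (AT1G44575), the sensor of energy-dependent quenching, and −0.81 for PSBR (AT1G79040), which turned to 0.29 under quantile normalization. PSBS and PSBX stood at −0.01 and −0.30 there, without a call, and PSBR lost its call in 3 of the 4 fits with 1 library left out.

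All 12 photosystem I subunit genes were called lower as well, with a median log2 difference of −1.32. PSAK (AT1G30380), which borders the antenna belt, fell from 2096 and 1921 to 463 and 499 RPKM (−2.06 ± 0.14, limma adjusted p = 0.000429). PSAO fell from 3043 and 2682 to 696 and 695 RPKM (−2.04 ± 0.16, limma adjusted p = 0.000551), and PSAF (AT1G31330), the docking site of plastocyanin, from 4750 and 3396 to 937 and 1114 (−1.97 ± 0.24, limma adjusted p = 0.00172). PSAD-1 (AT4G02770) fell from 2761 and 2407 to 1018 and 1115 RPKM (−1.27 ± 0.17, limma adjusted p = 0.00244), and PSAD-2 from 1333 and 1095 to 377 and 443 (−1.56 ± 0.16, limma adjusted p = 0.00118). DIG1 libraries lay below GFP without overlap in both genes, but under quantile normalization PSAD-1 stood at −0.01 and lost its call (limma adjusted p = 0.964). PSAE-1 (AT4G28750) fell from 3096 and 2639 to 1007 and 1062 RPKM (−1.47 ± 0.17, limma adjusted p = 0.00166), and PSAE-2 (AT2G20260) from 595 and 556 to 355 and 341 (−0.72 ± 0.11, limma adjusted p = 0.00362), the smallest called fall. PSAH-1 and PSAH2 (AT1G52230) encode the subunit where the major antenna docks on photosystem I. PSAH-1 went from 1567 and 1373 to 857 and 861 RPKM (−0.77 ± 0.15, limma adjusted p = 0.00786), and PSAH2 from 2769 and 2429 to 945 and 1101 (−1.35 ± 0.18, limma adjusted p = 0.00232). PSAG, PSAL and PSAN changed by −1.13, −1.30 and −0.93. Of these, PSAG, PSAH-1 and PSAL stood at 0.03, 0.06 and 0.03 under quantile normalization, and PSAH2 and PSAN at −0.19 and −0.09, none of them called. PSAH-1 and PSAN also lost their calls without GFP library 1.

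**Figure D3:**
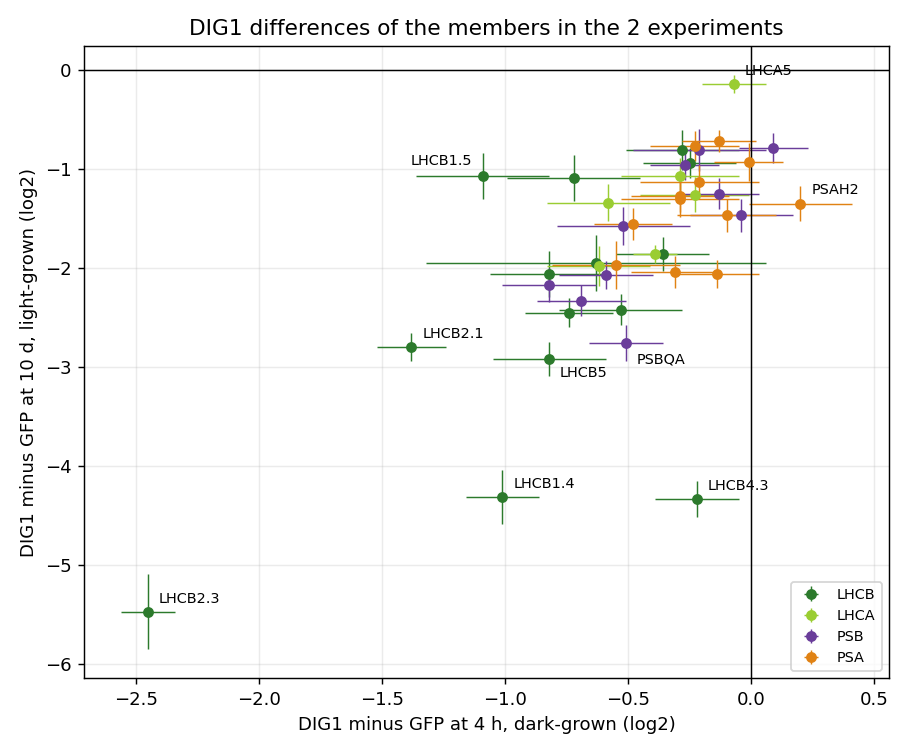
Log2 difference between DIG1 and GFP at 4 h in dark-grown seedlings (x axis) and at 10 d in light-grown seedlings (y axis) for the 42 members, coloured by family, with standard errors as bars. LHCB2.3 lies lowest on both axes (−2.45 and −5.47), LHCB4.3 lies at −0.22 at 4 h and at −4.33 at 10 d, and LHCA5 lies closest to 0 at 10 d.

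The DIG1 differences in the dark and in the light had no library in common. Over the 42 members Pearson's r was 0.70 and Spearman's rho 0.63, and over the 34 members other than LHCB1 and LHCB2 they were 0.51 and 0.64. These values describe how members lie relative to each other and carry no p, since members share libraries and some share sequence. LHCB4.3 stood apart, at −0.22 at 4 h and −4.33 at 10 d, and LHCB1.5 did in the other direction, at −1.09 at 4 h and −1.07 at 10 d.

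Because paralogues fell unequally, the make-up of some antenna transcript pools differed between lines. LHCB2.3 made up 23.4% and 22.9% of the summed LHCB2 level (RPKM, hence per length) in GFP at 4 h, 9.28% and 10.5% in DIG1 and 17.2% and 17.9% in DIG2. At 10 d its share was 19.2% and 15.8% in GFP and 4.16% and 1.88% in DIG1. LHCB1.4 made up 3.73% and 2.71% of the LHCB1 level in GFP at 10 d and 0.607% and 0.384% in DIG1, while LHCB1.5 made up 19.7% and 22% in GFP and 31.3% and 28.8% in DIG1. LHCB1.3 held 72.3% to 80.1% of the LHCB1 level in all dark-grown libraries, and at 10 d 43.7% and 42.2% in GFP and 34.3% and 33.0% in DIG1.

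PSBQA made up 58.1% and 59.9% of the PSBQ level in GFP at 10 d and 31.0% and 36.2% in DIG1, so the more abundant gene of the pair in GFP was the less abundant in DIG1. The share of PSBO2 in the PSBO level was 27.5% and 27.0% in GFP and 39.7% and 39.0% in DIG1. LHCA5 made up 43.2% and 44.9% of the joint LHCA5 and LHCA6 level in GFP and 72.5% and 72.3% in DIG1. In none of these sets did the 10 d groups overlap. They did in the LHCB4 set, where LHCB4.1 made up 58.3% and 54.4% in GFP and 57.4% and 60.1% in DIG1. With 2 libraries against 2 the smallest two-sided p of an exact permutation test is 0.333, so the shares were left without a test. These shares are ratios within a library, which a rescaling of the whole library leaves as they are.

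**Figure D4:**
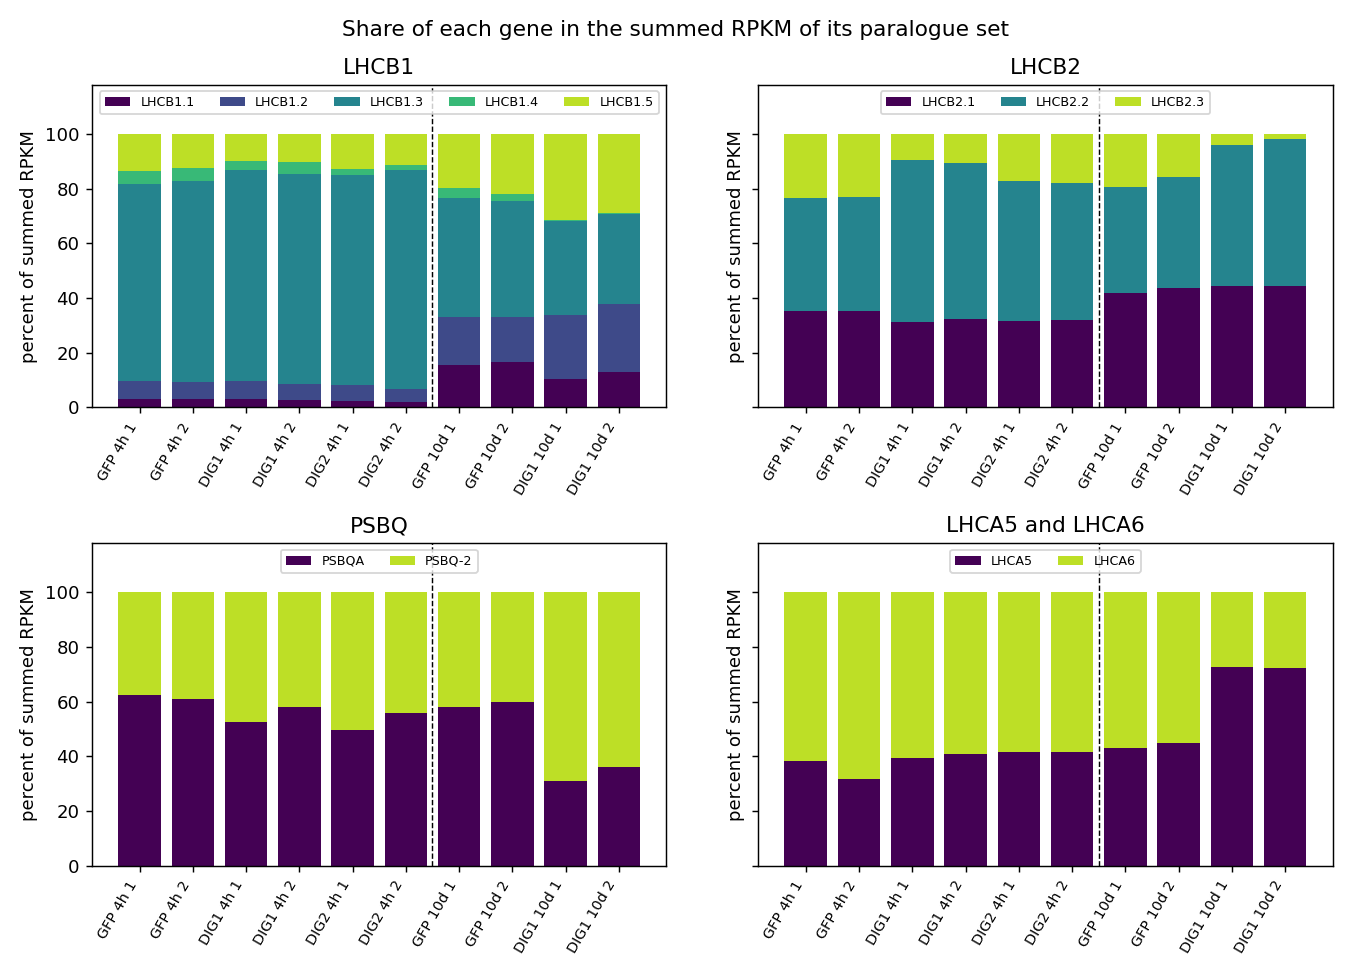
Share of each gene in the summed RPKM of its set (percent, stacked to the full bar) in each of the 10 libraries for LHCB1, LHCB2, PSBQ and the pair LHCA5 and LHCA6; the dashed line separates the 4 h table from the 10 d table. LHCB2.3 has 15.8% or more in every GFP library and 4.16% and 1.88% in DIG1 at 10 d, and LHCA5 has 43.2% and 44.9% in GFP and 72.5% and 72.3% in DIG1 at 10 d.

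The motif content of the upstream windows was compared with the size of the differences. Among the 20 antenna genes, the 10 with CCAATC had a median log2 difference of −1.65 in DIG1 at 10 d and the 10 without it −1.96. The 8 antenna genes with an ABRE core had a median of −1.91 and the 12 without −1.62. Over all members the order was the opposite, −1.35 for the 17 with an ABRE core and −1.58 for the 25 without. The 4 antenna genes with a G-box had a median of −1.60 and the 16 without −1.96. The 8 antenna genes with a TATA box had a median of −1.17 and the 12 without one −2.02. Their ranges, −4.33 to −0.14 and −5.47 to −0.81, overlap widely. These medians describe the members and were not tested.

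Other nuclear genes of the photosynthetic membrane were called in both directions. Of 32 such genes, 3 were called lower and 1 higher (cpSRP43, which delivers antenna proteins, 0.34 ± 0.09) in DIG1 at 4 h (5.54% and 3.01% of all genes). In DIG2 11 were called lower and none higher (7.48% and 7.37% of all genes). In DIG1 at 10 d 18 were called lower and 7 higher (31.2% and 31.9% of all genes). Fitted without a variance trend, limma called 1 lower and none higher in DIG1 at 4 h, and 7 lower in DIG2. At 10 d that fit called 16 lower and 6 higher. Fitted on only the 2 groups compared, DIG1 at 4 h had 3 lower and none higher. FD1 (AT1G10960), a ferredoxin gene called lower in all 3 comparisons with GFP, had 434 and 481 RPKM in GFP at 4 h, 197 and 216 in DIG1 and 187 and 230 in DIG2. At 10 d FD1 had 1494 and 1769 RPKM in GFP and 186 and 295 in DIG1 (−2.79 ± 0.25, limma adjusted p = 0.000748). PETE2 (AT1G20340), the major plastocyanin gene, fell from 3832 and 3551 to 777 and 924 RPKM at 10 d (−2.12 ± 0.18, limma adjusted p = 0.000677), and the ferredoxin reductase gene FNR1 (AT5G66190) changed by −1.99. OHP1 (AT5G02120), a one-helix protein needed to assemble photosystem II, was lower in all 3 comparisons with GFP (−0.41 in DIG1 and −0.99 in DIG2 at 4 h, −1.11 in DIG1 at 10 d). HCF136, another assembly factor of photosystem II, was the third gene called lower in DIG1 at 4 h (−0.39 ± 0.09, limma adjusted p = 0.0250), and FNR1 and the ATP synthase gene ATPC1 were among those lower in DIG2 (−0.56 and −0.55). At 10 d PSBTN, a small photosystem II subunit, and PETE1, the second plastocyanin gene, changed by −1.79 and −1.55. OHP1 was also higher in DIG1 than in DIG2 (0.58 ± 0.09, limma adjusted p = 0.0111), as was PSB28 (0.61 ± 0.09, limma adjusted p = 0.0118).

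The 7 genes called higher at 10 d were named after their values were seen, and 7 of 32 is not above the 31.9% of all genes called higher. LHCB7 (AT1G76570), an antenna relative outside the set, rose from 17.7 and 18.5 to 36.8 and 32.1 RPKM (0.91 ± 0.11, limma adjusted p = 0.00169). The photosystem II assembly factor PAM68 (AT4G19100) rose by 0.67 on the log2 scale, and cpSRP54 (AT5G03940) and ALB3 (AT2G28800), which deliver or insert antenna proteins at the thylakoid, rose by 0.64 and 0.46. The kinase STN7 (AT1G68830), which phosphorylates the major antenna in state transitions, rose by 0.47 and its opposing phosphatase TAP38 (AT4G27800) by 0.64. PGRL1B, of cyclic electron flow, was the seventh gene called higher (0.43). Others with such roles went the other way or did not pass: HCF136, PSB28 and STN8 were called lower (−0.43, −0.54 and −0.29), and cpSRP43, cpFtsY and LPA1 were not called (−0.10, 0.06 and 0.21). For none of these does the fit test a difference from the members.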

How the data were processed

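PolyA RNA-seq of whole Arabidopsis seedlings was analysed in 5 groups of 2 libraries. The authors deposited RPKM per gene and library, with log2 fold changes of each line over GFP and their FDR (adjusted p-values), per the file headers. Only genes that passed their abundance filter were listed. HTSeq 0.5.4, edgeR 3.6.2 and build TAIR10 come from the submitters' processing notes, and the aligner is not given in the sources used here. RPKM values were tested as log2(RPKM + 0.5) with limma 3.58.1 in R 4.3.3 (empirical Bayes with a variance trend, two-sided, Benjamini-Hochberg over all genes, threshold 0.05), on 6 libraries at 4 h and 4 at 10 d, after tests on simulated data. Whole reads were recovered from RPKM steps for 100.0% of genes at 4 h and 99.98% at 10 d (tolerance 0.001 read) and used for depth and for voom. The members and all lists (42 members, 32 associated genes, markers of root, guard cell and shoot) were chosen with earlier results of these data known. For each comparison, values are given for up to 8 called members with the largest changes, for paralogues and for the 2 smallest changes, and up to 5 associated genes are named; others were named after their values were seen. Alternatives changed the pseudocount, filter, variance trend, scaling, replicate block, groups fitted, or left out 1 library. Upstream windows, identities (Biopython) and coordinates come from TAIR10.1. Depth limits precision only for LHCB4.3.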

Additional observations from a re-analysis of the deposited data

How the results depend on the processing

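Pseudocounts of 0.1 and 1, a minimum mean of 1 RPKM, no variance trend and median-centred libraries gave counts of 8, 15, 0 and 41 members called lower (DIG1 at 4 h, DIG2 at 4 h, DIG1 against DIG2, DIG1 at 10 d), though without the variance trend 6 of the 8 in DIG1 at 4 h were shared. No paired analysis is implied by the labels: deviations of same-numbered libraries correlated between −0.01 and 0.16 over all genes and between −0.46 and 0.41 over the members, and the replicate block gave 8, 13, 0 and 38 members. Fitted on only the 2 groups compared, DIG1 at 4 h had 5 members lower. With voom on recovered reads the counts were 17, 26 and 41 lower, 9 were higher in DIG1 than in DIG2, and the 10 d median was −1.33. With 1 library left out, the counts lower ranged from 2 to 13 (DIG1 at 4 h), 6 to 9 (DIG2 at 4 h) and 31 to 41 (10 d). The DIG2 median then ranged from −0.56 to −0.39, the DIG1 against DIG2 median from −0.05 to 0.27, and the count higher between them from 0 to 1.

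Quantile normalization, which gives all libraries 1 distribution, moved the 10 d count more than any other setting tried. At 10 d it gave 1 member higher and 23 lower, with a median of −0.58. There LHCB1.2 stood at 0.09, LHCB4.1 at 0.39, LHCB4.2 at 0.09, LHCA2 at 0.08, LHCA4 at 0.13, PSBO2 at 0.10, PSBR at 0.29, PSAG at 0.03, PSAH-1 at 0.06 and PSAL at 0.03. In DIG2 it gave 22 members lower. In DIG1 at 4 h it gave 11 members lower (median −0.15) and 1 higher, PSAH2. LHCB4.1 stood at 0.01, PSBR at 0.11, PSBX at 0.21, PSAE-1 at 0.07 and PSAE-2 at 0.06. PSAG stood at 0.08, PSAK at 0.13, PSAL at 0.01 and PSAN at 0.13. LHCB1.3 ranked 1 in every library at 4 h, so its 0.00 in DIG1 and DIG2 is fixed by quantile normalization and is not a result. In DIG1 against DIG2 it gave 5 higher. With voom the differences of LHCA5 (0.02 at 4 h, 0.05 at 10 d), PSBX (0.05) and PSAN (0.09) were above 0 in DIG1.

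Differences near 0 changed sign when 1 library was left out. In DIG1 at 4 h they ranged from −0.44 to 0.00 for LHCB4.3, −0.26 to 0.12 for LHCA5, −0.05 to 0.23 for PSBO2, −0.31 to 0.05 for PSBQ-2, −0.45 to 0.02 for PSBR, −0.21 to 0.13 for PSBX, −0.21 to 0.01 for PSAE-1, −0.01 to 0.41 for PSAH2, −0.28 to 0.00 for PSAK and −0.12 to 0.10 for PSAN. In DIG2 PSBO2 ranged from −0.26 to 0.02. Over all genes, limma without the variance trend called 329 higher and 713 lower in DIG1 at 4 h, 762 and 933 in DIG2, and 38 and 111 between them. The lowest such counts with 1 library left out were 141 and 335, 406 and 509, and 20 (without DIG1 library 1) and 88 (without DIG1 library 2). The cause of these changes was not tested.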

Other observations

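Transcripts with chloroplast-genome identifiers, chosen after their values were seen, were listed for 50 genes at 4 h and 35 at 10 d in this polyA RNA. The files and annotation used here do not pair these identifiers with gene names. Their summed level at 4 h was 1117 and 1262 RPKM in GFP, 729 and 1181 in DIG1 and 923 and 592 in DIG2. At 10 d it was 231 and 177 RPKM in GFP and 427 and 279 in DIG1. Both DIG1 libraries lay above both GFP libraries for 29 of 35 of these genes at 10 d and below for none, where 44.2% of all genes lay above and 40.2% below, and all 42 nuclear members lay below. At 4 h both DIG2 libraries lay below both GFP libraries for 35 of 50 (30.9% of all genes) and both DIG1 libraries for 10 of 50 (26.5% of all genes). Neither line lay above GFP for any, where 29.3% and 25.2% of all genes did in DIG2 and DIG1. DIG1 library 1 and DIG2 library 2 were the low libraries at 4 h.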
